A study of Mus musculus with 31 samples.

Results

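The mRNA response to bortezomib was compared between a line of mouse squamous cell carcinoma (SCC) cells with eIF2α that can be phosphorylated on serine 51 and a line without it, in total RNA. The measure was the response difference, the log2 change with bortezomib in the S51 line minus the same change in the S51A line, and the libraries were chosen as all total RNA libraries of the study, 16 of 31, in 4 groups of 4. Both lines derive from 1 parental mouse skin SCC line that carries the oncogenic G12V form of Hras. The labels give its TGF-β receptor genotype as TgfbrIIfl/fl, whereas the study's text describes its SCC cells as having lost Tgfbr2, so the floxed alleles in the label should not be read as an intact gene. In both, the endogenous Eif2s1 alleles, which encode eIF2α, were ablated by CRISPR-Cas9, and a Myc-tagged transgene driven by the PGK promoter and delivered by lentivirus was the sole source of the protein. The transgene is wild type in S51 (HRasG12V:TgfbrIIfl/fl_S51_Myctag), whereas S51A (HRasG12V:TgfbrIIfl/fl_S51A_Myctag) carries alanine in place of serine 51 and cannot be phosphorylated there. Cells received DMSO as vehicle or 100 nM bortezomib, an inhibitor of the proteasome, for 4.5 h per the sample labels, while a figure legend of the study gives a shorter time. Both lines were grown from sorted single cells, several clones of each genotype were kept in the study, and which clone gave which library is not stated in the sources used here. The titles of the S51 bortezomib and S51A vehicle libraries were exchanged in the deposit, and each column was therefore assigned by the series' own note on that exchange rather than by the number in its title.

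Several kinases, each tuned to a different stress, phosphorylate eIF2α on serine 51, an event called the integrated stress response (ISR). Phosphorylated eIF2α blocks the exchange factor eIF2B, so that general initiation of translation falls while a few mRNAs with upstream open reading frames, of which Atf4 is the best known, are translated more. ATF4 is a transcription factor that turns on genes for amino acid synthesis and transport, tRNA charging and redox balance, and with its partners induces CHOP (Ddit3), TRIB3 and the phosphatase subunit GADD34 (Ppp1r15a), which closes the loop.

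Library totals ranged from 18758668 to 22994713 counts, and 11708 of the 24593 genes in the table had enough counts to be tested. Replicates of a group correlated at 0.994 to 0.996 in log2 CPM (counts scaled to library size) and libraries of different groups at 0.951 to 0.984, with no library apart from its group. The replicates are described both as technical and as independent in the study, and the p-values therefore measure the spread between these libraries. Most of the 17 keratinocyte markers listed were abundant: Krt5 lay between 3650 and 6310 CPM, Krt14 between 4780 and 7260 CPM, and Trp63 between 166 and 430 CPM. The lowest of that list were Krt17 at 0.454 to 4.57 CPM, Krt6b at 1.09 to 12.4 CPM and Krt15 at 5.39 to 36.9 CPM. Of 8 fibroblast markers only Pdgfra exceeded 3 counts in any library, and Col1a2, Col3a1, Dcn, Lum and Thy1 had 0 counts in all 16. The immune markers Cd3e and Lyz2 were likewise at 0, and Cd68, at 3.27 to 7.20 CPM, was the highest of that list. Of the endothelial and melanocyte markers 2 of 5 and 4 of 6 exceeded 3 counts in some library, none above 4.63 CPM. Because these are bulk samples, fewer cells of a kind and less RNA per cell cannot be told apart, and each change is relative to the bulk of genes in the same library.

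The targeted gene itself gave no check of the mutation, since a count per gene for Eif2s1 (chr12:78862072-78887010, GRCm38) does not separate the S51 transgene from the S51A transgene. Its level in S51 vehicle was 299, 314, 312 and 314 CPM, and in S51 bortezomib 287, 282, 291 and 286 CPM. In S51A vehicle it was 286, 298, 294 and 301 CPM, and in S51A bortezomib 279, 299, 290 and 294 CPM. Libraries of both lines overlapped under both treatments, and the response difference of -0.09 ± 0.044 (SE) did not pass the test (edgeR quasi-likelihood, Benjamini-Hochberg adjusted p = 0.144).

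Bortezomib changed both lines strongly and for the most part alike. In S51, 667 genes rose (5.70% of genes tested) and 1123 fell (9.59%), and in S51A 532 rose (4.54%) and 1003 fell (8.57%), each at an edgeR adjusted p under 0.05 and a change of more than 1.5-fold. Across the 11708 genes the responses of the lines correlated at a Pearson r of 0.787 and a Spearman rho of 0.739, a description across genes that are not independent replicates. The response difference was called for 245 genes by the same thresholds: 157 responded higher in S51 than in S51A (1.34% of genes tested) and 88 lower (0.752%). Scaled by library totals only, with no TMM factors, the split was 132 higher and 126 lower. At the adjusted p alone, without a fold threshold, the differences numbered 1404 positive (12%) and 1122 negative (9.58%), so most differences between the lines were small.

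**Figure D1:**
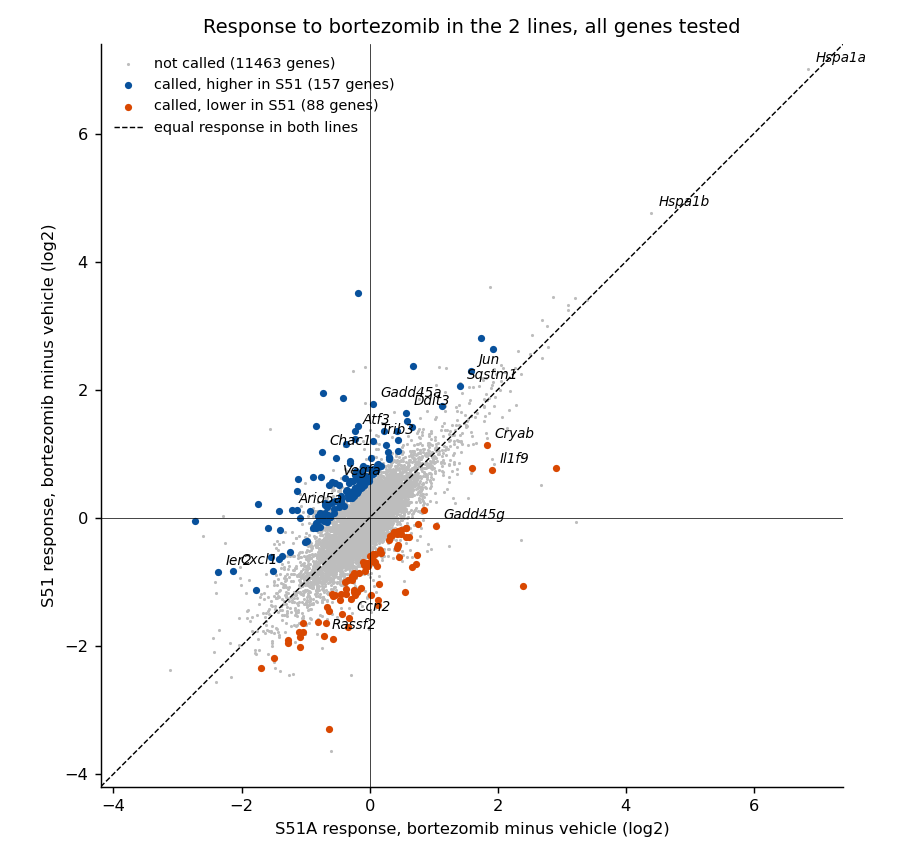
Response to bortezomib (log2, bortezomib minus vehicle) of 11708 genes in S51 (vertical axis) against S51A (horizontal axis), 4 libraries per group; the dashed line marks equal responses. The 157 genes called higher in S51 lie above the line and the 88 called lower lie below it, while Hspa1a and Hspa1b sit near the line at the upper right.

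The 157 genes that responded higher in S51 did not share 1 kind of response. In 48 the mRNA rose in S51 and was not called in S51A, with a median change of 0.85 in S51 and -0.05 in S51A on the log2 scale. Another 38 were not called in S51 and fell in S51A, with medians of 0.02 and -0.82. A further 55 were called in neither line and only their difference passed, 7 rose in both lines, 7 fell in both, and Chac1 and Lrrc39 rose in S51 and fell in S51A. Without TMM factors the first of these classes came to 29 genes and the second to 44. Among the 88 genes that responded lower in S51, 42 fell in S51 and were not called in S51A, 15 fell in both (64 and 25 without TMM factors, 26 and 15 under DESeq2), 21 were called in neither line, 6 rose in S51A and were not called in S51, and 4 rose in both: Cryab, Prdm16, Il1f9 and Arhgap26.

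The list of transcription factors of the ISR and of other stress responses, such as Atf6 and Xbp1, was led by Atf3, Ddit3 and Nupr1. Of 19 listed, 17 were tested, 3 were called higher in S51 and none lower, and the median response difference of the list was 0.29 against -0.003 for all genes tested. Ddit3 (chr10:127290793-127296291), which encodes the pro-apoptotic factor CHOP, stood at 13, 12.4, 12.6 and 10.8 CPM in S51 vehicle and at 31.9, 39.2, 35.4 and 46.0 CPM in S51 bortezomib. In S51A it stood at 10.2, 10.8, 10.7 and 13.7 CPM with vehicle and at 13.1, 18.1, 15 and 21.1 CPM with bortezomib. Every S51 bortezomib library was thus above every other library, while the S51A groups overlapped. Its response difference was 1.07 ± 0.18 (SE, edgeR adjusted p = 0.000142), with a rise of 1.64 in S51 and a change of 0.57 in S51A that fell short of the fold threshold.

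Atf3 (chr1:191170296-191183333), a stress-induced transcription factor and a target of ATF4, was scarce in all groups. It measured 2.57, 1.81, 2.06 and 1.55 CPM in S51 vehicle and 4.24, 5.40, 4.13 and 6.6 CPM in S51 bortezomib. In S51A the values were 4.24, 2.72, 2.96 and 2.67 CPM with vehicle and 2.33, 2.78, 3.28 and 2.45 CPM with bortezomib. The S51 groups did not overlap and the S51A groups did, and the response difference was 1.58 ± 0.27 (edgeR adjusted p = 0.000166). With vehicle every S51 library was below every S51A library for Atf3, and the line difference was called.

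Nupr1, which encodes a small chromatin-associated stress protein, was 16.4, 14.3, 16.2 and 10.5 CPM in S51 vehicle and 30.1, 43.8, 38.4 and 39.8 CPM in S51 bortezomib. In S51A it was 6.39, 8.07, 7.78 and 7.71 CPM with vehicle and 9.18, 14.9, 10.1 and 12.8 CPM with bortezomib. It rose in both lines without overlap, by 1.41 in S51 and 0.66 in S51A, and was higher in S51 under both treatments. The response difference was 0.76 ± 0.20 (edgeR adjusted p = 0.0093).

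Atf4 mRNA itself (chr15:80255184-80257545) did not follow this pattern. It was 772, 749, 708 and 696 CPM in S51 vehicle, and 743, 719, 730 and 725 CPM in S51 bortezomib. The S51A libraries gave 462, 486, 490 and 515 CPM with vehicle, and 479, 557, 510 and 541 CPM with bortezomib. All 8 S51 libraries exceeded all 8 S51A libraries, and within each line vehicle and bortezomib overlapped. The response difference was -0.10 ± 0.06 (edgeR adjusted p = 0.252). Atf5, a related factor also under translational control, was higher in S51 by 1.46 with vehicle and by 1.06 with bortezomib on the log2 scale, and its response difference of -0.40 passed the adjusted p (0.00087) but not the fold threshold.

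Sensors and feedback regulators of the pathway gave 2 called members of 19 tested, Trib3 and Impact, and a list median of -0.06. Trib3 (chr2:152337425-152344060), a pseudokinase that ATF4 and CHOP induce and that restrains them, was 55.0, 43.4, 45.7 and 36.0 CPM in S51 vehicle and 93.0, 104, 97.4 and 117 CPM in S51 bortezomib. S51A libraries had 16.6, 20.9, 19.3 and 23.4 CPM with vehicle and 17.5, 21, 18.7 and 26.0 CPM with bortezomib. The S51A groups overlapped throughout, and S51 was above S51A already before treatment, by 1.16 on the log2 scale. The response difference was 1.14 ± 0.17 (edgeR adjusted p = 3.2e-05). Impact, which restrains the kinase GCN2, rose by 0.69 in S51 and had a value of 0.06 in S51A, but its difference of 0.63 dropped to 0.56, below the fold threshold, without S51A vehicle replicate 4. The 4 eIF2α kinase genes Eif2ak1 to Eif2ak4 had differences between -0.19 and 0.04. Ppp1r15a rose in both lines, by 1.22 in S51 and 0.65 in S51A, and its difference of 0.57 passed the adjusted p (0.000633) and not the fold threshold.

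Chac1 had the highest response difference of all genes with more than 3 counts in every library and a median of at least 50 counts in a group. It encodes a γ-glutamylcyclotransferase that degrades glutathione and is a target of ATF4. Chac1 (chr2:119351242-119354326) measured 27.1, 21.7, 16.4 and 17.1 CPM in S51 vehicle and 36.4, 39.3, 47.4 and 43.3 CPM in S51 bortezomib. In S51A it measured 18.4, 23.3, 30.0 and 26.5 CPM with vehicle and 9.62, 16.7, 14.7 and 17.4 CPM with bortezomib. The mRNA therefore rose in one line and fell in the other, with no overlap between treatments in either, and the lines overlapped with vehicle. The response difference was 1.77 ± 0.22 (edgeR adjusted p = 5.11e-06). Of 30 listed effectors of ATF4 and CHOP, 24 were tested and 4 were called, all higher in S51: Chac1, Vegfa, Bbc3 and Ndrg1, with a list median of 0.27, and 2 were called without TMM factors. Of the 24, 12 rose and 2 fell in S51, and 8 rose and 3 fell in S51A. Gdf15 and Ddit4 had no called difference, with changes of 3.40 and 2.56 in S51 and 3.40 and 2.50 in S51A. The call of Bbc3, which encodes the BH3-only protein PUMA, was lost in 12 of 16 fits that each left out 1 library (0.67 to 1.08), and that of Ndrg1 in 11 (0.64 to 1.02) and under DESeq2.

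**Figure D2:**
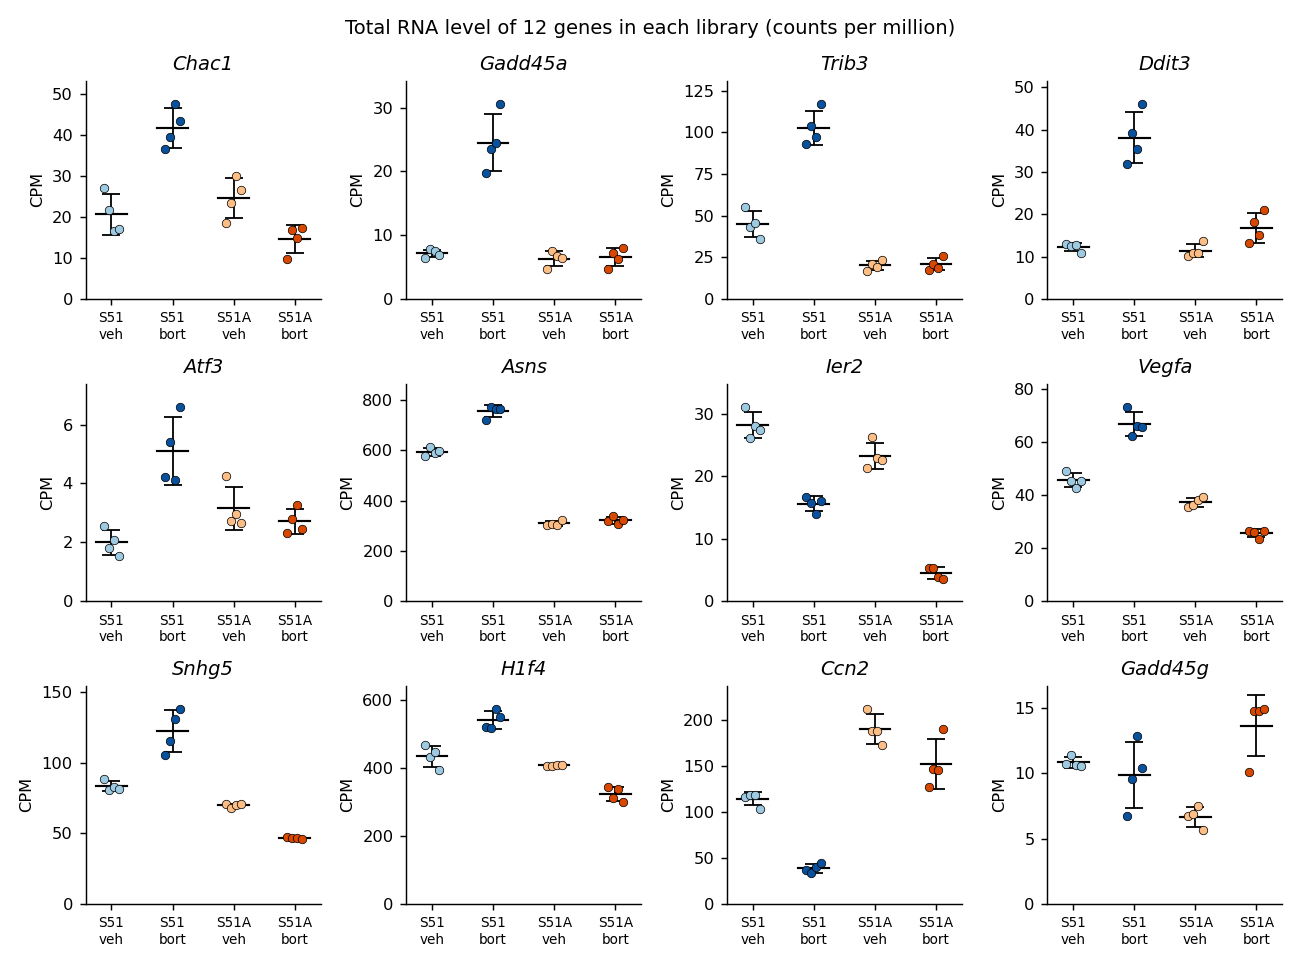
Level of 12 genes in every total RNA library (CPM, vertical axis from 0) by line and treatment; points are libraries, the wide bar is the mean and the whisker the SD of 4. Chac1, Gadd45a, Trib3, Ddit3 and Atf3 have their highest points in S51 bortezomib, Ier2 its lowest in S51A bortezomib, and Ccn2 its lowest in S51 bortezomib.

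The promoters of these genes were read for the C/EBP-ATF response element (CARE), the composite site bound by ATF4 with a C/EBP partner, because its presence is independent of the values that chose the genes. The letters searched were TGATGNAA on both strands in the RefSeq windows of GRCm38.p6 that span 250 bases before to 50 bases after each start site. Of the 157 genes higher in S51, 125 had such a window and 10 held a match (8%), against 246 of 9418 genes tested that had a window (2.61%), and 2 of 63 genes lower in S51 (3.17%). The 10 were Apoe, Arid5a, Arid5b, Atf3, Chac1, Nupr1, Pck2, Sgms2, Tnfaip3 and Trib3, and the 2 were Ank2 and Gadd45g. Matches were also present in 5 of 16 genes of tRNA synthetases and their complex with a window (31.2%) and 4 of 17 genes of amino acid synthesis (23.5%), although few of these were called. The sites of 3 ISR genes that responded higher in S51, of Pck2 and Asns from amino acid metabolism, and of Gadd45g, which responded lower, are shown with the matched letters in capitals, 5′ to 3′ on the gene's own strand, which is the minus strand for Atf3, Nupr1 and Asns and the plus strand for the others:
Chac1, chr2:119351038-119351067: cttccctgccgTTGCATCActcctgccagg
Atf3, chr1:191183425-191183454: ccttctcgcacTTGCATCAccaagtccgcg
Nupr1, chr7:126625562-126625591: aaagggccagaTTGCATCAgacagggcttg
Pck2, chr14:55540152-55540181: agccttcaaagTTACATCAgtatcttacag
Asns, chr6:7693214-7693243: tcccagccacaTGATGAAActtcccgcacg
Gadd45g, chr13:51846563-51846592: tgccgcctcatTTGCATCAgaaagcgggcg

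Chac1, Atf3, Nupr1 and Gadd45g shared the same 8 letters, read on the reverse strand, with their first letter at positions -193, -110, -110 and -101 relative to the start site, counted as 0. The match is a description of these windows and does not show that a factor bound there. Matches to the cAMP response element (TGACGTCA) were present in 4.8% of genes higher in S51 with a window and in 3.83% of all genes tested with a window. For the antioxidant response element (TGACNNNGC, both strands) these shares of genes were 13.6% and 17.1%. For the heat shock element (both strands) they were 1.6%, from 2 genes, and 0.563%.

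Among 22 genes of amino acid and one-carbon synthesis, 9 were called higher in S51 and 1 lower with vehicle (median 0.53), and 14 higher and 1 lower with bortezomib (median 0.81), while 1 had a called response difference. Of all 11708 genes tested, 737 were called higher in S51 and 1316 lower with vehicle, and 964 higher and 1373 lower with bortezomib. Asns (chr6:7675165-7693209), which makes asparagine, measured 577, 615, 590 and 600 CPM in S51 vehicle and 720, 773, 765 and 767 CPM in S51 bortezomib. In S51A it measured 303, 306, 305 and 323 CPM with vehicle and 321, 338, 306 and 324 CPM with bortezomib. All S51 libraries were above all S51A libraries, by 0.94 on the log2 scale with vehicle and by 1.23 with bortezomib, and the response difference was 0.29 ± 0.05 (edgeR adjusted p = 0.000188), under the fold threshold. The called gene was Pck2, which encodes mitochondrial PEP carboxykinase, at 0.59. A positive difference was seen in 18 of the 22, 14 of them past the adjusted p alone and none negative past it, beside 12% positive and 9.58% negative among all genes tested. The median was 0.22.

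Of 22 listed transporters 18 were tested and 1 was called, the glycine transporter gene Slc6a9 at 0.65 ± 0.14, which without S51A bortezomib replicate 1 came to 0.58 and was not called. The cystine carrier gene Slc7a11 had 0.49, and the list median was 0.19. With vehicle 7 transporters were called higher in S51 and 1 lower, beside 737 and 1316 of the 11708 genes tested. The list of cytosolic tRNA synthetases holds 20 synthetase genes and Aimp1, Aimp2 and Eef1e1, auxiliary proteins of their complex. Of these 23, 5 were called higher in S51 with vehicle and 13 with bortezomib, beside 737 and 964 of the 11708 genes tested. A positive response difference was seen in 21, and 13 passed the adjusted p alone (12% of all genes tested). The 1 called was Lars for leucine at 0.59, and the median was 0.16. The calls of Pck2 and Lars rested on values near the threshold: they were lost in 8 and 7 of the 16 fits without 1 library, within 0.57 to 0.64 and 0.57 to 0.63, and without TMM factors.

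The plot of differences between the lines places these genes side by side. For Ddit3, Gadd45a, Chac1 and Jun the lines were not called different with vehicle and S51 was called higher with bortezomib, whereas Asns, Pck2, Slc6a9, Nupr1 and Trib3 were called higher in S51 under both treatments. Of the 157 genes, 98 were not called between the lines with vehicle, 47 were lower in S51 and 12 higher (17.5% of all genes tested were called in either direction). With bortezomib 83 of the 157 were higher in S51, 15 lower and 59 not called (20% of all genes tested were called). For 68 of the 157 (43.3%) the lines were called with bortezomib and not with vehicle, against 6.79% of all genes tested, and for 29 (18.5%) the reverse, against 4.36%. The response difference that chose the 157 is the shift between these contrasts, so nothing is read from these shares.

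**Figure D3:**
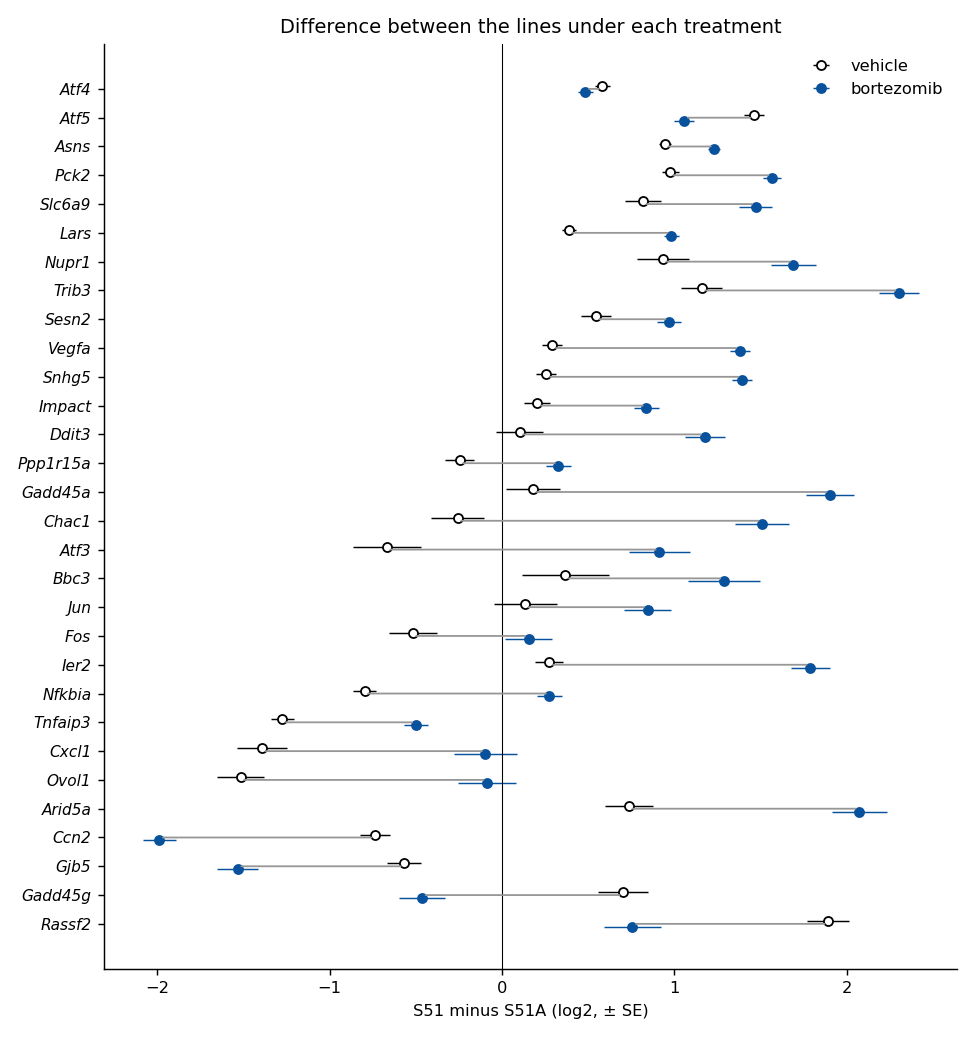
Difference between the lines (S51 minus S51A, log2 ± SE from the fit over 16 libraries) with vehicle (open) and with bortezomib (filled) for 30 genes. Chac1 moves from -0.26 to 1.51, Cxcl1 from -1.39 to -0.10 and Rassf2 from 1.89 to 0.76, while Atf4 stays between 0.48 and 0.58.

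Growth arrest and p53-linked genes were led by Gadd45a (chr6:67035096-67037407), which binds PCNA and halts the cycle after stress. It stood at 6.44, 7.80, 7.44 and 6.86 CPM in S51 vehicle and at 19.7, 23.5, 24.5 and 30.5 CPM in S51 bortezomib. In S51A it stood at 4.70, 7.47, 6.72 and 6.35 CPM with vehicle and at 4.71, 7.16, 6.28 and 8.03 CPM with bortezomib. Only the S51 bortezomib group was apart from the others, and the response difference was 1.72 ± 0.21 (edgeR adjusted p = 4.26e-06), a rise of 1.78 in S51 against a value of 0.06 in S51A. Of 23 p53 targets tested 4 were called higher in S51 (Gadd45a, Bbc3, Plk3 and Eda2r) and none lower, 2 without TMM factors, and the median was 0.22. The call of Eda2r was lost without S51A vehicle replicate 1, at 0.57. The list as a whole responded in both lines, with 15 members rising in S51 and 12 in S51A. Trp53 itself had a difference of 0.13, and Aen, a p53-induced nuclease, the lowest of the list at -0.33. A relative of the leading gene went the other way. Gadd45g (chr13:51846675-51848475) was 10.7, 11.4, 10.7 and 10.6 CPM in S51 vehicle and 6.71, 9.54, 12.8 and 10.4 CPM in S51 bortezomib. For S51A the levels were 6.71, 6.88, 7.47 and 5.65 CPM with vehicle and 10.1, 14.8, 14.8 and 14.9 CPM with bortezomib. The S51 groups overlapped, the S51A groups did not, and the response difference was -1.17 ± 0.20 (edgeR adjusted p = 0.000184). The third member, Gadd45b, fell by 0.91 in S51 and had a value of -0.27 in S51A, with a difference of -0.65. Its call was lost in 4 of the 16 fits without 1 library (-0.74 to -0.56), those without S51 vehicle replicate 2, S51 bortezomib replicate 1, S51A vehicle replicate 4 or S51A bortezomib replicate 2.

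Vegfa (chr17:46016993-46032377), the angiogenic growth factor, was 49.3, 45.4, 42.6 and 45.3 CPM in S51 vehicle and 73.3, 62.4, 66.2 and 65.6 CPM in S51 bortezomib. In S51A it was 35.7, 36.2, 38 and 39.2 CPM with vehicle and 26.6, 26.2, 23.3 and 26.6 CPM with bortezomib. All 4 groups were separate, in opposite directions in the lines. The response difference was 1.09 ± 0.08 (edgeR adjusted p = 4.37e-09), although neither change alone, 0.55 and -0.54, exceeded 1.5-fold.

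Immediate early genes and AP-1 subunits fell with bortezomib more often than they rose, and the fall was deeper in S51A for several. Of 28 listed 25 were tested. In S51, 9 fell and 2 rose, and in S51A 11 fell and 1 rose. Among all genes tested 9.59% fell and 5.70% rose in S51, and 8.57% fell and 4.54% rose in S51A. Those that responded higher in S51 numbered 7 (Ier2, Junb, Maff, Fosl1, Jun, Fos and Jund), none lower, with a median of 0.32. The shares of all genes tested were 1.34% and 0.752%. Between the lines, 8 of the 25 were called lower in S51 and 0 higher with vehicle (median -0.40). With bortezomib 7 were lower and 2 higher (median -0.12). Of all 11708 genes tested, 1316 were lower and 737 higher with vehicle, and 1373 lower and 964 higher with bortezomib. Ier2 (chr8:84661331-84662852), a transcriptional coregulator induced by growth factors, was 31.2, 26.2, 28 and 27.5 CPM in S51 vehicle and 16.7, 15.8, 13.9 and 16.1 CPM in S51 bortezomib. The S51A libraries gave 21.4, 26.3, 23 and 22.6 CPM with vehicle and 5.36, 5.32, 3.82 and 3.56 CPM with bortezomib. The mRNA fell in both lines, by 0.85 in S51 and by 2.36 in S51A, and the response difference was 1.51 ± 0.14 (edgeR adjusted p = 1.18e-07).

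Jun (chr4:95049036-95052222), the AP-1 subunit that stress kinases act on, rose instead. It was 11.8, 10.9, 10.6 and 11.5 CPM in S51 vehicle and 53.9, 58.1, 49.0 and 57.5 CPM in S51 bortezomib. S51A libraries had 11.2, 12.3, 8.03 and 9.16 CPM with vehicle and 24.1, 35.0, 19.9 and 42.1 CPM with bortezomib. Its spread was widest in S51A bortezomib, and the response difference of 0.71 ± 0.23 (edgeR adjusted p = 0.0279) was lost under DESeq2 and in 6 of the 16 fits without 1 library (0.56 to 0.91). Fos had 0.67, with the S51 libraries separate by treatment and the S51A libraries overlapping, and 0.58 without S51 bortezomib replicate 2, where its call was lost. Egr1 fell in S51 by 1.52 and had the lowest difference of the list, -0.74, which did not pass the test (edgeR adjusted p = 0.3235).

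Inflammatory genes under NF-κB behaved in a similar way, with 4 of 24 tested members higher in S51 (Cxcl1, Il1a, Nfkbia and Tnfaip3), Il1f9 and Cxcl5 lower, and a median of 0.28. The lines already differed before treatment: 15 of the 24 were called lower in S51 and 0 higher with vehicle (median -1.05). With bortezomib 12 were lower and 0 higher (median -0.66). Of all 11708 genes tested, 1316 were lower with vehicle and 1373 with bortezomib. Nfkbia (chr12:55489409-55492647), the inhibitor of NF-κB that NF-κB itself induces, was 29.8, 28.6, 24.5 and 26.2 CPM in S51 vehicle and 27.7, 27.4, 26.9 and 26.1 CPM in S51 bortezomib. For S51A the levels were 49.0, 47.9, 49.0 and 43.5 CPM with vehicle and 24.7, 23.4, 21 and 20.2 CPM with bortezomib. The difference of 1.07 ± 0.10 (edgeR adjusted p = 5.7e-08) came with no overlap between treatments in S51A and with overlap in S51. Cxcl1, a neutrophil chemokine gene, fell in both lines, by 0.84 in S51 and by 2.13 in S51A. It was 22.9, 21.1, 14.3 and 17.3 CPM in S51 vehicle and 12.8, 11, 8.02 and 10.3 CPM in S51 bortezomib. In S51A it was 60.1, 58.5, 39.9 and 38.8 CPM with vehicle and 13.3, 12.2, 8.41 and 10.9 CPM with bortezomib. With bortezomib the lines overlapped, and the response difference was 1.29 ± 0.24 (edgeR adjusted p = 0.000376). Il1a rose by 0.89 in S51 from a level far below that of S51A, the lines differing by -3.96 with vehicle and -2.76 with bortezomib on the log2 scale. The call of Cxcl5 was lost under limma-voom and in 8 of the 16 fits without 1 library (-0.82 to -0.58).

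Long noncoding RNAs that host snoRNAs, whose spliced transcripts are short-lived because they are degraded when translated, had the highest median of the prepared lists with more than 3 tested members, 0.37. Of 20 listed 17 were tested, 5 were called higher in S51 (Snhg5, Snhg1, Snhg12, Zfas1 and Snhg16) and none lower, and 10 passed the adjusted p alone with a positive difference. Over all genes tested these shares were 1.34%, 0.752% and 12%. Snhg5 (chr9:88521052-88522897) was 88.2, 80.7, 82.8 and 81.5 CPM in S51 vehicle and 105, 115, 131 and 138 CPM in S51 bortezomib. The S51A libraries gave 70.5, 67.9, 69.7 and 70.7 CPM with vehicle and 47.4, 46.8, 46.5 and 45.5 CPM with bortezomib. The lines moved apart with no overlap of any 2 groups, and the response difference was 1.14 ± 0.08 (edgeR adjusted p = 4.37e-09). Snhg1, Snhg12 and Zfas1 rose in S51 by 0.81, 0.67 and 0.72 and had -0.10, -0.23 and -0.12 in S51A. The call of Snhg16 was lost without S51A vehicle replicate 1 (0.58). The host Gas5, at 0.43, passed the adjusted p only, and Snhg9 was the lowest at -0.38.

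**Figure D4:**
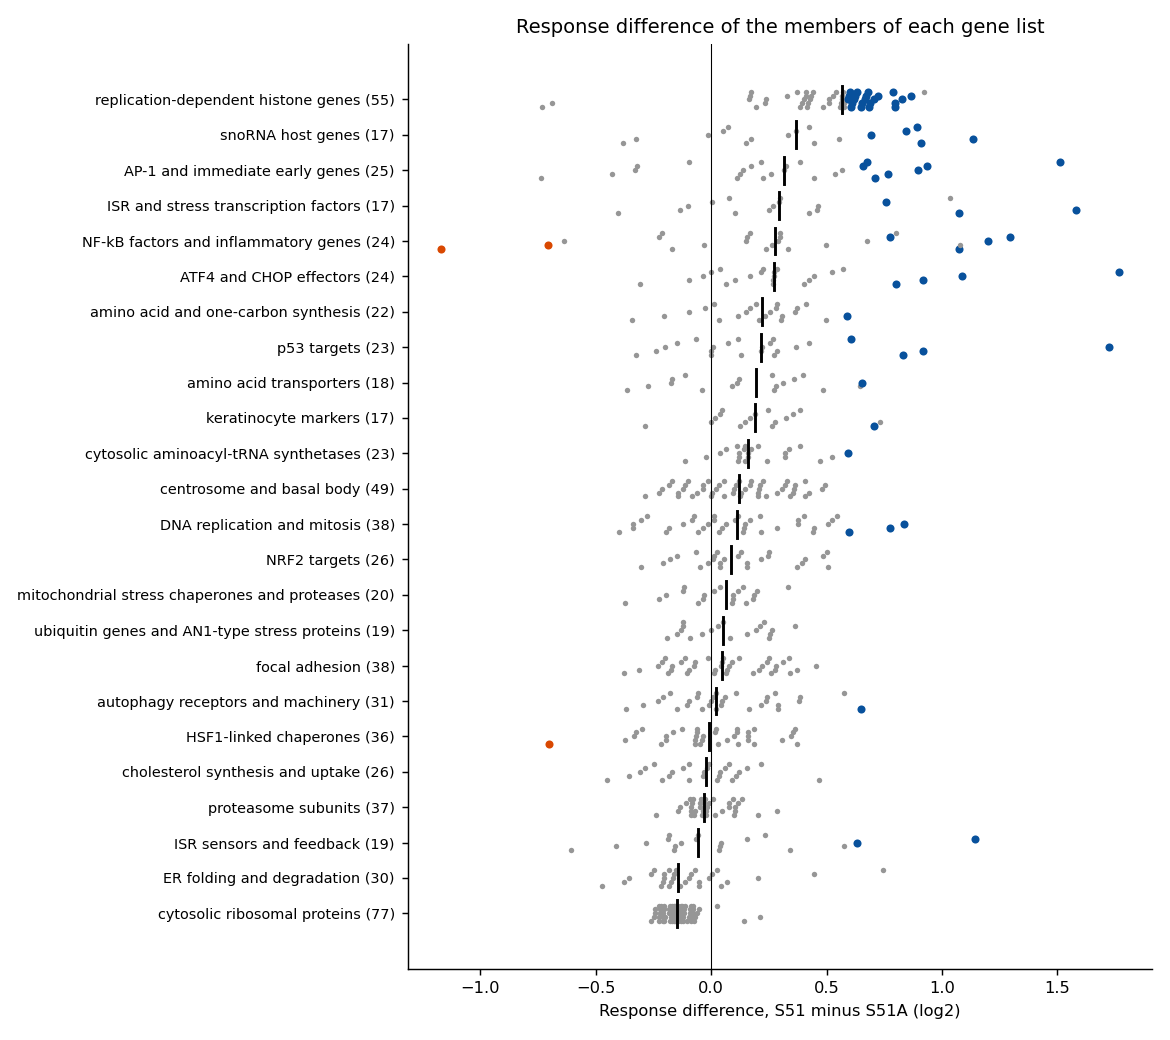
Response difference (S51 minus S51A, log2) of each tested member of 23 prepared lists and of the replication-dependent histone genes, with list sizes in brackets; blue points were called higher and orange points lower in S51, and the black tick is the median. Medians run from -0.15 for ribosomal proteins to 0.57 for histone genes.

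Histone genes were numerous among the genes that responded higher in S51. This family was picked by gene symbol after its values were seen, and no test was made of it. Replication-dependent histone genes are transcribed in S phase, and their mRNAs end in a stem-loop without a poly(A) tail. Of 55 tested, 22 were called higher in S51 (16 without TMM factors) and none lower. The 22 were 14% of the 157, while the 55 were among 11708 genes tested. Of the 55, 53 had a positive difference, and 48 were positive past the adjusted p alone. Among all genes tested 1.34% were called higher, and 12% were positive past the adjusted p alone. The median was 0.57, from a median change of 0.35 in S51 and -0.18 in S51A. All classes took part, with 3 of 5 tested H1 genes, 8 of 12 H2A genes, 5 of 16 H2B genes, 4 of 11 H3 genes and 2 of 11 H4 genes called. Total RNA was depleted of rRNA and not selected for poly(A), so these mRNAs were kept in the libraries.

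H1f4 (chr13:23621777-23622558), an H1 linker histone gene, was 467, 431, 448 and 394 CPM in S51 vehicle and 522, 517, 573 and 552 CPM in S51 bortezomib. S51A libraries had 407, 407, 408 and 408 CPM with vehicle and 346, 312, 338 and 298 CPM with bortezomib. No groups of the same line overlapped, and the response difference was 0.65 ± 0.07 (edgeR adjusted p = 4.13e-07). H2ac8 had the highest called value of the family at 0.87 ± 0.15. It was 14.6, 15.4, 15.1 and 12.5 CPM in S51 vehicle and 21.3, 18.7, 23.8 and 20.3 CPM in S51 bortezomib. For S51A the levels were 11.8, 11.6, 12.6 and 14.3 CPM with vehicle and 13.1, 9.71, 9.23 and 8.42 CPM with bortezomib, where the groups overlapped.

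Many histone genes are near-identical copies, so the count of a single copy is uncertain. The column names mark the counted reads as unique, so reads common to copies may have been dropped. A sum over genes does not restore such reads. Summed over the 55 genes, the S51 libraries had 7788 to 9094 CPM with vehicle and 10240 to 11280 CPM with bortezomib, with no overlap. The S51A libraries had 7253 to 7939 CPM with vehicle and 6183 to 7421 CPM with bortezomib, with overlap. H2bc21 and H3c14 were the exceptions, at -0.69 and -0.73, and did not pass the test. Among 9 replication-independent histone genes, which are expressed throughout the cycle, none was called in either direction and the median was -0.035.

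**Figure D5:**
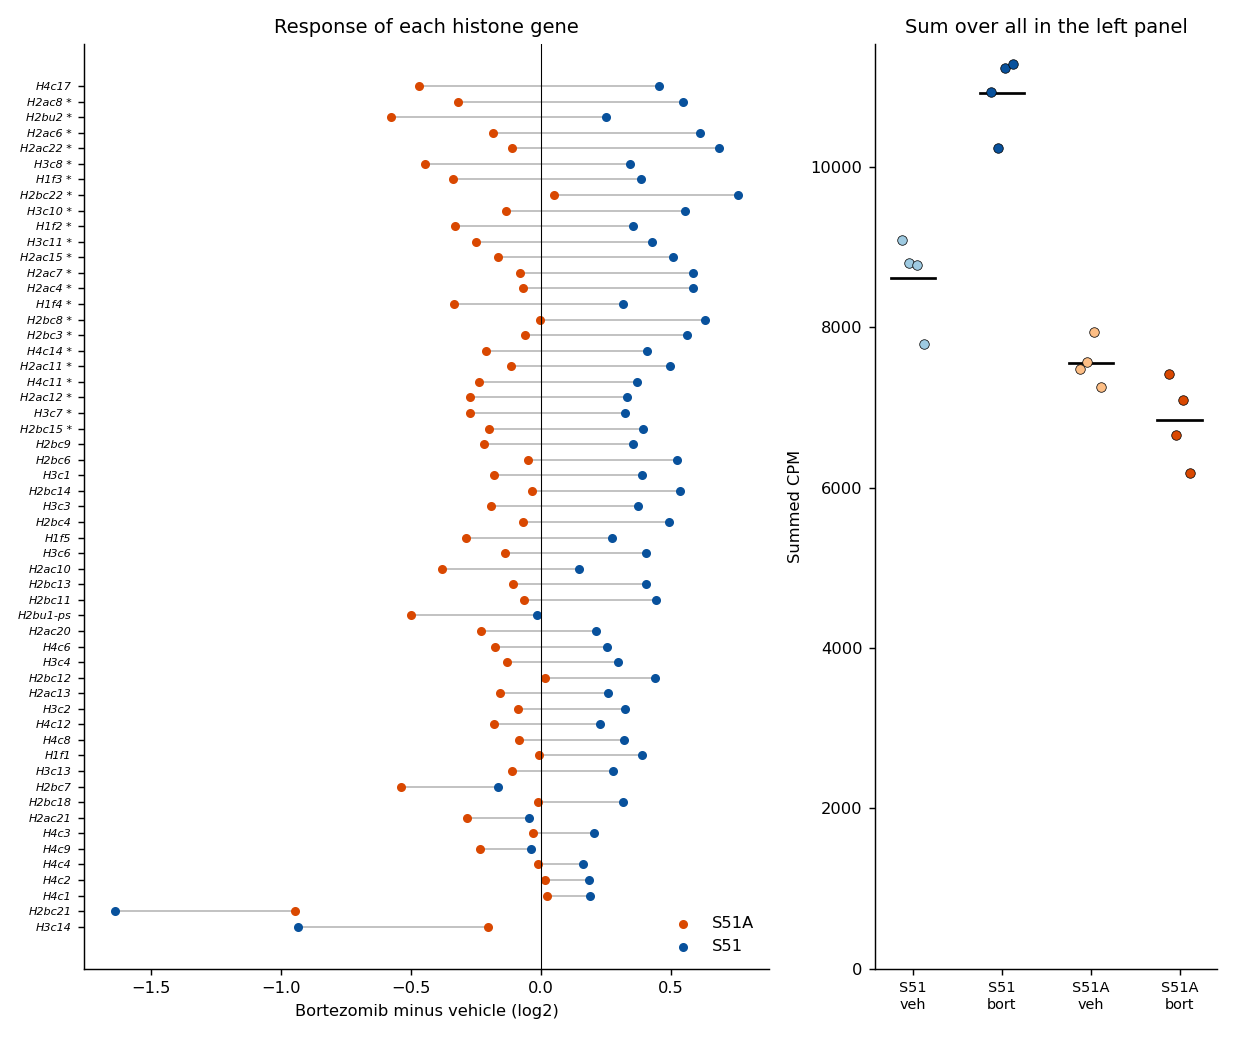
Left, change with bortezomib (log2) of each of 55 replication-dependent histone genes in S51 (blue) and S51A (orange), ordered by response difference, with called genes starred. Right, their summed CPM in each library, with the mean of 4 as a bar; the S51 bortezomib libraries lie at 10240 CPM or above and the S51A libraries at 7939 CPM or below.

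Of 38 genes of DNA replication and mitosis 3 were called higher in S51 (Cenpf, Top2a and Mki67) and none lower, with a median of 0.11, and 2 were called without TMM factors. Among all genes tested 1.34% were called higher and 0.752% lower. Cenpf (chr1:189640606-189688107), a kinetochore protein of late cell cycle, was 191, 200, 191 and 197 CPM in S51 vehicle and 287, 278, 309 and 284 CPM in S51 bortezomib. In S51A it was 227, 223, 228 and 258 CPM with vehicle and 175, 193, 201 and 209 CPM with bortezomib. The lines moved in opposite directions without overlap, and the response difference was 0.84 ± 0.07 (edgeR adjusted p = 1.51e-08). At the adjusted p alone 16 members had a positive difference, among them the mitotic genes Aurka, Kif11 and Kif20a at 0.51, 0.54 and 0.52 and the replication genes Rrm1 and Pola1 at 0.21 and 0.22. The 4 negative ones were Pcna, E2f1, Ccne1 and the cyclin gene Ccnd3, at -0.20, -0.28, -0.31 and -0.34. Among all genes tested 12% were positive and 9.58% negative at the adjusted p alone, so the negative share of this list was near that of all genes. The call of Mki67 was lost in 5 of the 16 fits without 1 library (0.56 to 0.64).

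Other stress programs known from proteasome inhibition had few called differences. Among 36 chaperones linked to the heat shock factor HSF1, 24 rose in S51 and 27 in S51A, and the median difference was -0.01. At the adjusted p alone 5 differences were positive and 5 negative, beside 12% and 9.58% of all genes tested. Hspa1a, the inducible HSP70, was 1.41, 1.02, 0.918 and 1.51 CPM in S51 vehicle and 160, 136, 177 and 156 CPM in S51 bortezomib. The S51A libraries gave 2.60, 2.72, 2.46 and 2.63 CPM with vehicle and 290, 311, 316 and 285 CPM with bortezomib. The rises were 7.01 and 6.85 on the log2 scale, and the response difference was 0.16 ± 0.21 (edgeR adjusted p = 0.64). Reads common to Hspa1a and its near-identical copy Hspa1b may have been dropped from both, since the counted reads are marked as unique. That copy changed by 4.76 in S51 and 4.40 in S51A, and its difference of 0.36 passed the adjusted p (edgeR, 0.027) but not the fold threshold. The only called chaperone was Cryab, a small heat shock protein gene, at -0.70 ± 0.18: it rose by 1.14 in S51, to 35.5, 55.4, 42.1 and 41.5 CPM, and by 1.84 in S51A, to 117, 176, 122 and 162 CPM.

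Of 37 proteasome genes, which include Pomp, Psmg1, Nfe2l1 and Ddi2 beside the subunits, 17 rose in S51 and 18 in S51A, and none had a called difference by edgeR (median -0.03, with 2 positive and 1 negative past the adjusted p alone). None of 26 targets of NRF2, the regulator of the antioxidant response, had a called difference, and the median was 0.09, with 16 members rising in S51 and 10 in S51A. Past the adjusted p alone 7 NRF2 targets had a positive and 4 a negative difference. The 30 genes of ER folding and degradation had no called difference either, at a median of -0.14, with 5 negative differences past the adjusted p alone. The 26 cholesterol genes, 49 centrosome genes, 38 focal adhesion genes, 20 mitochondrial chaperones and proteases and 19 ubiquitin and AN1-type genes also had 0 called differences by edgeR. At the adjusted p alone 12 centrosome genes, 10 focal adhesion genes and 7 ubiquitin genes had positive differences, and 1, 3 and 0 had negative ones, beside 12% positive and 9.58% negative among all genes tested.

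Cytosolic ribosomal protein genes had small and uniform differences. Of 77 tested none was called, 74 were below 0, 49 passed the adjusted p alone with a negative difference, and the median was -0.15, from a median change of 0.13 in S51 and 0.29 in S51A. The autophagy receptor gene Sqstm1, which encodes p62, was called, rising from 205, 199, 213 and 182 to 783, 886, 836 and 816 CPM in S51 and from 276, 246, 275 and 222 to 700, 711, 674 and 610 CPM in S51A. Its difference was 0.65 ± 0.08 (edgeR adjusted p = 7.98e-06), and it was the only call among 31 autophagy genes.

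Among genes that responded lower in S51, Ccn2 (chr10:24595442-24598683) had the most negative value of those well counted. It encodes a matricellular growth factor also known as CTGF. It was 116, 119, 118 and 104 CPM in S51 vehicle and 36.5, 33.4, 39.8 and 44.1 CPM in S51 bortezomib. S51A libraries had 212, 188, 188 and 173 CPM with vehicle and 127, 146, 145 and 191 CPM with bortezomib, where the groups overlapped. The mRNA fell by 1.57 in S51 and had a value of -0.32 in S51A, and the response difference was -1.25 ± 0.13 (edgeR adjusted p = 3.92e-07). The related Ccn1 had -0.88. Rassf2, a RAS-association domain gene, was 7.90, 7.47, 8.54 and 7.74 CPM in S51 vehicle and 1.76, 2.50, 2.43 and 2.10 CPM in S51 bortezomib. For S51A the levels were 2.19, 2.31, 1.86 and 2.15 CPM with vehicle and 1.29, 1.55, 1.04 and 1.30 CPM with bortezomib. It fell in both lines, and the difference of -1.14 ± 0.21 (edgeR adjusted p = 0.000467) came with a vehicle level in S51 that was 1.89 above that of S51A on the log2 scale.

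The remaining named genes of this direction were Il1f9, which rose in both lines but by 1.91 in S51A against 0.74 in S51, the connexin gene Gjb5 at -0.97, the complement receptor gene C3ar1 at -0.96, Adamts15 at -0.98, Zfp324 at -0.95, Ackr3 at -0.93 and the imprinted noncoding RNA Peg13 at -0.95. The call of Peg13 was lost under DESeq2 and without S51 bortezomib replicate 3, S51A vehicle replicate 1 or S51A bortezomib replicate 4 (-1.12 to -0.72 over the 16 fits). Gjb5, C3ar1 and Adamts15 fell in S51 and did not pass the thresholds in S51A, whereas Ackr3 and Zfp324 fell in both.

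Of the other genes with large positive differences, Arid5a, which encodes an RNA-binding protein, and Ovol1, an epithelial transcription factor gene, were not called in S51 and fell by 1.22 and 1.59 in S51A. Their response differences were 1.34 ± 0.22 and 1.43 ± 0.22. Arid5a was higher in S51 under both treatments, and Ovol1 differed between the lines by -1.52 with vehicle and by -0.09 with bortezomib. Spon1, at 1.16, rose by 0.85 in S51 and had a value of -0.31 in S51A. Denn2b and Nectin4, at 1.22 and 1.15, were both lower in S51 than in S51A with vehicle, at -1.19 and -2.37, and the call of Denn2b was lost under DESeq2.

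Keratinocyte markers had mostly positive differences, with a median in the range of the amino acid transporter and tRNA synthetase lists. All 17 were tested, 16 had a positive difference, Krt16, a keratin of stressed and wounded epidermis, was called at 0.70, and the median was 0.19. At the adjusted p alone 6 were positive and 1 negative, beside 12% and 9.58% of all genes tested. Their summed level was 18400 to 19400 CPM in S51 vehicle and 21600 to 24900 CPM in S51 bortezomib, and 23800 to 24300 CPM in S51A vehicle and 24700 to 27200 CPM in S51A bortezomib. Whether this rise of the markers bears on the other lists was not tested.

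The called genes were also described by length, kind of RNA and level. The 157 had a median exonic length of 2801 bases in the longest RefSeq transcript and the 88 of 3030, against 3327 for all genes tested. Long noncoding RNAs were 8.28% of the 157 and 3.41% of the 88, against 3.01% of all. The genes higher in S51 were spread over the range of expression, with 54, 39, 28 and 36 in 4 bins of mean level with equal numbers of genes, from lowest to highest, whereas those lower in S51 numbered 50, 25, 12 and 1. The median SE of a difference was 0.289 in the lowest bin, up to a mean of 7.22 CPM, and 0.0559 in the highest, so that a 1.5-fold difference was far better resolved for abundant genes. In 5 called genes (Kdm5d, Gsta2, Arhgap26, 9930012K11Rik and Aspa) every library of some group was at 3 counts or fewer, and no fold is given for them.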

How the data were processed

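Total RNA of SCC lines was depleted of rRNA and sequenced as single reads, and the authors merged repeat runs before they deposited the table. The deposited values are raw counts of reads per gene by Entrez identifier. The column names carry the tags RepMask and uniq, read here as masking of repeats and uniquely aligned reads. The labels name Bowtie2, featureCounts, DESeq2 and mm10, whereas the methods describe another counter, and versions are not given in the sources used here. Identifiers matched RefSeq names for 24569 of 24593 genes. Counts from the ribosome profiling libraries were not used, and 0 columns of the table were left unassigned.

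Genes were filtered with filterByExpr (minimum 10 counts), leaving 11708. All 16 libraries entered 1 fit of edgeR 4.0.16 (R 4.3.3) with TMM factors and the quasi-likelihood test, and p-values were adjusted by the Benjamini-Hochberg method over all genes tested. A gene was called at an adjusted p under 0.05 and a fold above 1.5. "Rose", "fell", "higher" and "lower" refer to calls. CPM values use TMM-scaled totals, from libraries of 18758668 to 22994713 counts. No fold is given where a group was at 3 counts or fewer in every library.

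Members and lists were chosen with earlier results of these data known. Genes named were the 15 highest and 10 lowest called differences among genes with over 3 counts in every library and a median of at least 50 counts in some group, up to 6 called members of each list, the ends of each list, and a set of ISR and heat shock genes whatever their values. All others, the histone genes included, were chosen after their values were seen. The fit was tested on simulated data for the response difference over 11708 genes, where it recovered 79 of 100 genes changed by 1 and 96 of 100 changed by 2 on the log2 scale, with 2 false calls among 11508 unchanged genes. Alternatives were DESeq2 1.42.0, limma-voom (limma 3.58.1), other scaling, filters and thresholds, a block for the replicate number, and leaving out each library.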

Additional observations from a re-analysis of the deposited data

Results flagged for a closer look

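The response to bortezomib differed between the lines by a test of the difference itself for 157 genes higher and 88 lower in S51. Among the 24 genes shown library by library, the positive response differences on the log2 scale were 1.0726 for Ddit3, 1.5796 for Atf3, 0.7576 for Nupr1, 1.7651 for Chac1, 1.1436 for Trib3, 1.7224 for Gadd45a, 1.0866 for Vegfa, 1.1352 for Snhg5 and 0.6492 for Sqstm1. They were 1.5133 for Ier2, 0.7097 for Jun, 1.0725 for Nfkbia, 1.2946 for Cxcl1, 0.6489 for H1f4, 0.8651 for H2ac8 and 0.837 for Cenpf. The negative ones were -1.2506 for Ccn2, -1.1652 for Gadd45g, -0.7016 for Cryab and -1.1353 for Rassf2.

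A library stood far from the other 3 of its group by Dixon's criterion in 8 of the 96 groups formed by these 24 genes, and chance gives about 1 in 20. In S51 vehicle these were replicate 1 for Eif2s1 (298.8 CPM) and replicate 4 for Ccn2 (103.5 CPM). In S51 bortezomib it was replicate 1 for Asns (720.4 CPM). S51A vehicle replicate 4 stood high for Ddit3 (13.67 CPM), Asns (322.8 CPM) and Cenpf (257.5 CPM). In S51A bortezomib they were replicate 3 for Vegfa (23.31 CPM) and replicate 1 for Gadd45g (10.12 CPM), both low.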

How the results depend on the processing

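Of the 157 genes called higher and 88 called lower in S51, none changed sign under any alternative. DESeq2 gave 135 and 67, limma-voom 163 and 87, and RLE factors 159 and 87. Without the filter on low counts there were 170 and 104, and with a mean of at least 50 counts 134 and 69. The adjusted p alone gave 1404 and 1122, and a fold above 2 gave 37 and 19. Leaving out each library in turn gave 136 to 179 higher and 79 to 102 lower. With library sizes alone (132 and 126) the median of all genes moved from -0.0026 to -0.0405, and the genes that fell in S51 and not in S51A came to 64 in place of 42, and those that fell in both lines to 25 in place of 15. Under DESeq2 the former came to 26.

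A block for the replicate number gave 179 higher and 108 lower. Deviations of same-numbered libraries from their group means correlated at 0.00213 to 0.191 over 24 pairs, 8 of them over 0.1, and at -0.167 to 0.0992 over 72 pairs with different numbers. In 12 of 16 libraries the best match in each other group had the same number, a hint of pairing from the data. No label says what a number marks and not every pair was over 0.1, so the fit without the block was kept. With the block 2 keratinocyte markers were called in place of 1, and the other lists had the same numbers of calls.

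Of 87 named genes with a call, 27 lost it without some library and 60 did not. Among genes without a call, Snhg9 ranged from -0.604 to 0.1739 over these fits, with a positive value without S51A bortezomib replicate 3. Csf1r ranged from -0.3837 to 0.2318, with positive values without S51 vehicle replicate 3 and S51 bortezomib replicate 4 (0.0193). The median SE of 0.289 in the lowest of 4 bins of expression limits what could be called there.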

Other observations

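Several further genes, named after their values were seen, responded higher in S51. Chd2, which encodes a chromatin remodeler, rose by 0.94 in S51 and had 0.02 in S51A, a difference of 0.92 ± 0.07 (SE). Genes of the spindle and kinetochore outside the prepared lists were Cenpe (0.66), Kif23 (0.64), Sgo1 (0.64), Knl1 (0.63), Kif14 (0.63), Aspm (0.63) and Nusap1 (0.62). The calls of Knl1 and Kif14 were lost without S51A vehicle replicate 4 (0.57 and 0.56), and those of Aspm and Nusap1 without S51 bortezomib replicate 3 (0.56 and 0.57). The nonmuscle myosin heavy chain genes Myh9 and Myh14 rose in S51 by 0.73 and 1.14, with 0.10 and 0.26 in S51A. The noncoding RNA Neat1 fell by 0.73 in S51A and had 0.04 in S51, and Hk2, a hexokinase gene of glycolysis, fell by 1.24 in S51A and had -0.53 in S51. Zfp750, an epidermal differentiation factor gene, rose in both lines, by 2.81 in S51 and 1.74 in S51A.

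Among genes that responded lower in S51 was Pik3r1 (-0.76), a regulatory subunit gene of PI3 kinase, which fell by 0.83 in S51 and had -0.07 in S51A.

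The lines also differed in genes outside the pathway. The Y-linked genes Eif2s3y and Ddx3y had 0 counts in all 8 S51 libraries, and Kdm5d and Uty had at most 2 counts. In the S51A libraries they lay at 54.3 to 63.3, 50.7 to 61.4, 30.0 to 36.1 and 22.4 to 27.7 CPM. Eif2s3y encodes a gamma subunit of eIF2, the complex to which eIF2α belongs. The part of such differences between the lines in the response difference was not tested.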
